A study of Mus musculus with 42 samples.

Results

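The core histone genes encode the H2A, H2B, H3 and H4 proteins around which DNA is wrapped in nucleosomes. Of the 20462 genes listed in 9 expression tables of mouse colon, 56 were core histone genes, taken by symbol (H2ac, H2bc, H3c or H4c followed by a number, or an older symbol beginning with Hist and a number). There were 17 H2A, 16 H2B, 11 H3 and 12 H4 genes, and each table listed 52 to 56 of them. The group was chosen by the normalized counts of H2ac19, seen to be higher after dextran sodium sulfate (DSS) than at baseline in WT mice of one colony, so values from that contrast are given as a description only.

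All mice were on a C57/BL6 background and at least 8 weeks old. Mtg16-null mice lack the transcriptional corepressor MTG16, and P209T homozygotes (T/T) carry a proline-to-threonine point mutation of it; these came from separate colonies bred from heterozygotes, each with its own matched WT littermates, called here the null colony and the P209T colony. Of the 42 libraries, 8 were from proximal colon crypts at baseline (2 for each genotype and colony) and 15 from distal crypts at baseline (4 WT and 4 Mtg16-null of the null colony, 3 WT and 4 T/T of the P209T colony). A further 13 were from distal crypts taken after 5 days of 2% DSS in the drinking water and 4 days of plain water (3 WT and 4 Mtg16-null, 3 WT and 3 T/T), and 6 from distal tumors (3 WT, 3 T/T) after 1 injection of 10 mg/kg azoxymethane (AOM) and 3 cycles of 3% DSS. Crypts were freed from 5 cm of colon by chelation, whereas tumors were dissected whole, so tumor and crypt libraries differed in preparation. Library labels begin with a number, and DSS and baseline libraries never shared one (6217 for DSS in the null colony, 5740 for DSS in the P209T colony, 5698 for tumors, 4149, 5094 and 5582 for baseline). Treatment and whatever that number stands for cannot be told apart in any DSS or tumor contrast.

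Most core histone genes are replication-dependent: their mRNAs accumulate in S phase, when new DNA needs new nucleosomes. These mRNAs are exceptional among messengers in ending not in a poly(A) tail but in a short stem-loop, which is bound by the stem-loop binding protein. The libraries were made from poly(A)-selected RNA, so a core histone read comes from a transcript that was polyadenylated or was carried through the selection, and the level of such a gene is not the level of its stem-loop mRNA. In bulk RNA, fewer cells of a type and less RNA per cell cannot be told apart.

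The annotated transcripts of 38 of the 56 genes held a stem-loop, shown here for the genes on which the results turn, with 5 bases on either side where the transcript reaches that far. The capitals mark the stem-loop and the sequences run 5′ to 3′ as read from the GENCODE vM21 transcripts (GRCm38/mm10).

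H2ac18: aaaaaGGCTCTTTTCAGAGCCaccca
H2ac19: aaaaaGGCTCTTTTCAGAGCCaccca
Hist1h2ap: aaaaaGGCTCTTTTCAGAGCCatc
H2bc14: acaaaGGCTCTTTTCAGAGCCactaa
H2bc7: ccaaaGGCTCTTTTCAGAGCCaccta
H2bc3: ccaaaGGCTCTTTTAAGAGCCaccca
H4c14: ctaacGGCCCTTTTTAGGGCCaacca
H4c8: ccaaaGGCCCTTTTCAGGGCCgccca

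The form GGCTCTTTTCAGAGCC was found in 9 of 17 H2A, 7 of 16 H2B and 4 of 11 H3 genes, and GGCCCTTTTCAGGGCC in 6 of 12 H4 genes. Annotated ends differed widely. In 27 genes the annotated transcript ran more than 5 and at most 300 bases past the coding sequence, here called a short end. In 16 genes, among them H2bc4, H2bc6, H2bc21, H2ac6 and H4c14, it ran more than 300 bases past it, a long end. In 13 genes, among them H2bc13 and Hist1h2an, the annotation stopped at the coding sequence.

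The genes lay in clusters. On chromosome 13, 17 lay in chr13:21715763-21837530, 5 in chr13:22035164-22043676 and 24 in chr13:23531050-23762386, with H2ac1 alone at chr13:23934462-23934851. The remaining 9 lay in chr3:96219865-96270132. Members of a class resemble each other closely, which bears on how reads could be assigned: 39 of the 56 had fewer than 50% of their 31-base words to themselves among all annotated transcripts, 9 had fewer than 10%, and H2ac19 had none.

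Promoter sequences (250 bases before to 50 bases after the start, RefSeq, GRCm38.p6) were matched for 51 genes and searched on both strands. TATAAA was present in 56.9% of them against 14.1% of 26974 other genes. CCAAT was present in 84.3% against 37.8%: all 17 H2A, 14 H2B and 9 H3 promoters held it, but 3 of 11 H4 promoters did. The octamer ATTTGCAT was present in 21.6% against 1.72%, in 6 H2A and 5 H2B promoters and in no H3 or H4 promoter. H2ac18 and H2ac19 differed here, since TATAAA was found for H2ac18 and not for H2ac19.

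Whole reads could be recovered for 38 of the 42 libraries, which held 32.2 to 74.7 M reads (median 46.7 M). Core histone genes took 205 to 814 CPM (median 358), CPM being counts scaled to library depth, and 46 to 55 of the genes had at least 1 read. A few genes held most of this. Scaled to transcript length as well (CPM per kilobase, 7 WT distal baseline libraries), Hist1h2ap, an H2A gene, stood at 245 ± 76.0 (SD, n = 7), H2bc4 at 155 ± 24.0 and H2ac18 at 43.8 ± 12.9. The next were H4c9 at 7.74 ± 1.26 and H2ac19 at 5.50 ± 7.19, and all others lay below. H2ac19 was the only one of these 5 whose SD exceeded its mean.

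H2ac19 and H2ac18 encode H2A and lie head to head on chromosome 3. The H2ac19 transcript (528 bases, chr3:96239749-96240276, minus strand) is contained letter for letter in the H2ac18 transcript (586 bases, chr3:96245497-96246082, plus strand), as its bases 59 to 586, so 58 bases are found in H2ac18 alone. H2ac18 shared 89.7% of its 31-base words with a further annotated gene, Gm20634, which was not analysed here. Reads of the pair therefore had almost no sequence by which to be told apart.

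In WT distal crypts of the P209T colony, the contrast that singled the group out, normalized counts of H2ac19 were 0, 123 and 0 at baseline and 349, 394 and 701 after DSS. H2ac18 went the other way, with 1198, 1630 and 1539 at baseline and 971, 1112 and 1051 after DSS. Neither gene's groups overlapped. The log2 difference of H2ac19 was 6.53 with a pseudocount of 1 and 8.74 with 0.1, so its size was set by the value added to the zeros. The sum of the pair was 31.9 ± 5.65 CPM at baseline and 31.5 ± 4.92 after DSS (SD, n = 3 each), a log2 difference of 0.036 (SE 0.19).

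The other DSS contrasts did not use those libraries. In WT of the null colony, H2ac19 was 96.3, 0, 286 and 539 at baseline and 592, 446 and 528 after DSS (log2 difference 3.06, SE 1.68, adjusted p = 0.313). In Mtg16-null crypts it was 0, 115, 327 and 494 at baseline and 1050, 438, 652 and 832 after DSS (3.42, SE 1.66, adjusted p = 0.151). The groups overlapped in both genotypes. In T/T crypts H2ac19 was 0, 103, 106 and 134 at baseline and 190, 229 and 150 after DSS, without overlap (2.43, SE 1.62, adjusted p = 0.368). Summed with H2ac18, the log2 differences were -0.13 in WT, 0.32 in Mtg16-null and -0.63 in T/T, none past the threshold.

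**Figure D1:**
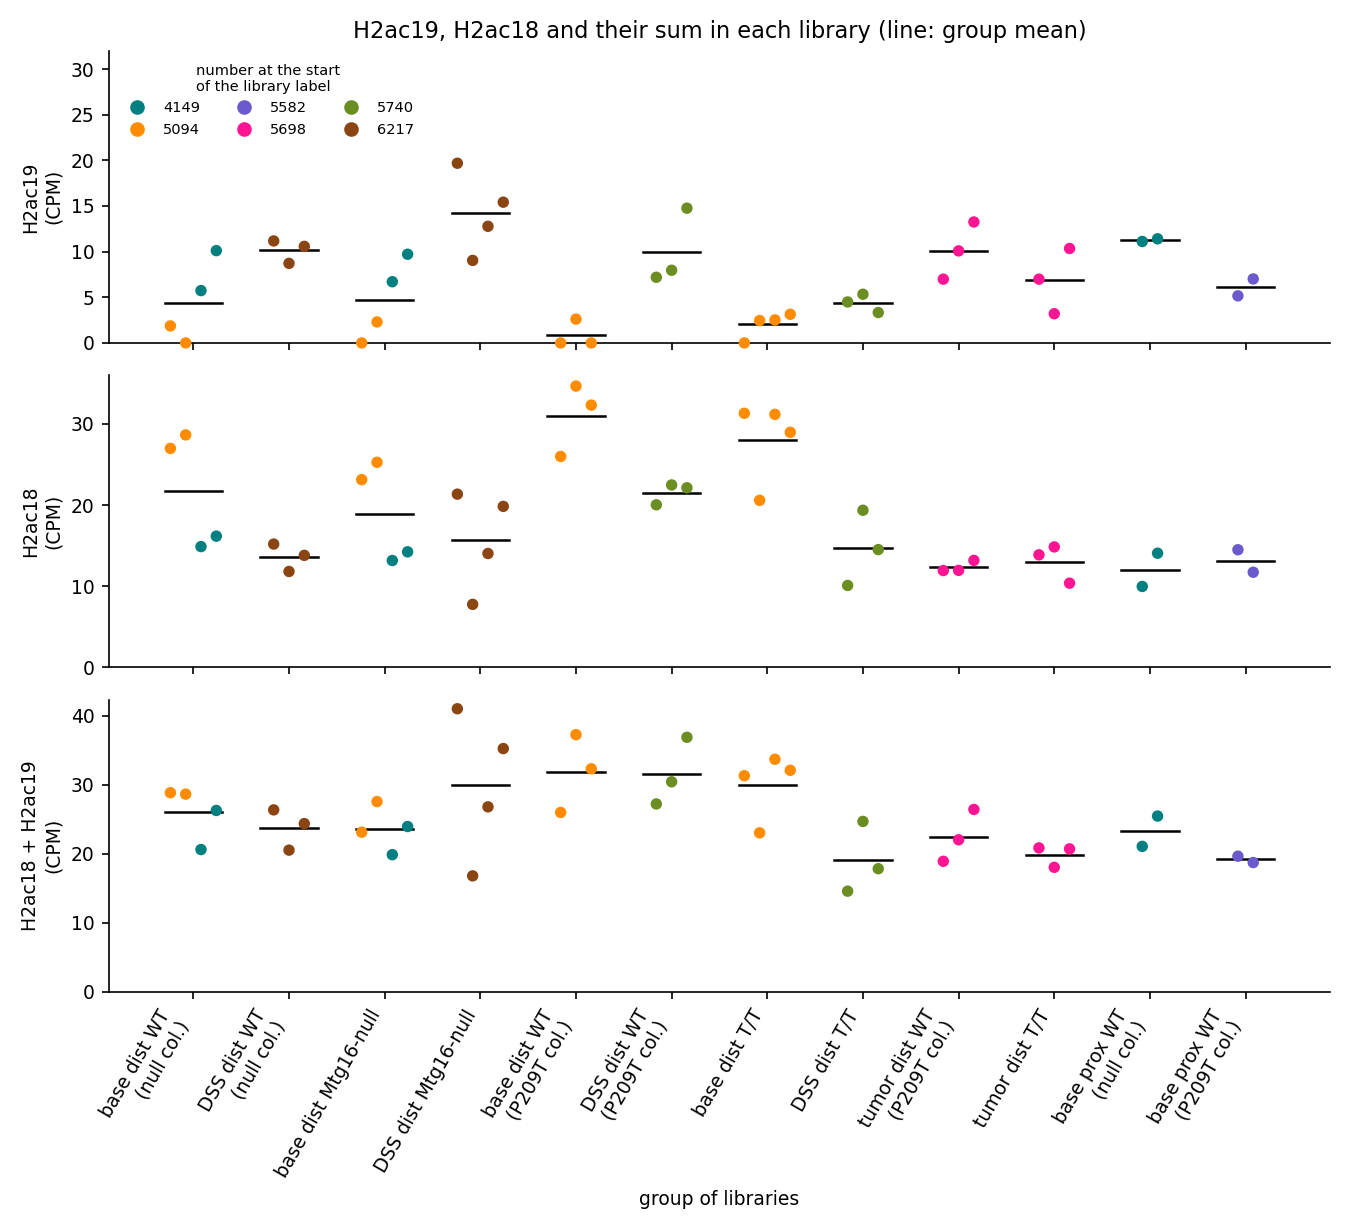
CPM of H2ac19 (top), H2ac18 (middle) and their sum (bottom) in each of 38 libraries, by group, coloured by the number at the start of the library label; lines are group means. H2ac19 lies at 0 to 3.14 CPM in the 11 libraries numbered 5094, where H2ac18 is high, and the sum lies between 14.6 and 41.0 in these 38 libraries.

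The low values of H2ac19 lay mostly in 1 set of libraries. Of the 11 baseline libraries numbered 5094, which come from both colonies and from WT, Mtg16-null and T/T mice, 5 had no H2ac19 read, and its share of the pair's reads was 0 to 10.7% (median 6.47%). Since the H2ac19 transcript lies whole within that of H2ac18, a 0 here says how shared reads were divided and sets no limit on H2ac19 RNA. In the other 27 libraries with recovered reads the share was 17.7 to 53.8%, and the 4 distal baseline libraries numbered 4149 lay at 27.8 to 40.5%. The DSS libraries lay at 18.6 to 40.01% in the P209T colony and at 42.4 to 53.8% in the null colony. In the 4 proximal mutant libraries, known by normalized counts only, it was 16.4% and 53.5% in Mtg16-null (numbered 4149) and 0 and 28.3% in T/T (numbered 5582). H2ac19 was thus also listed at 0 in 1 library of another number, proximal T/T replicate 1, where H2ac18 stood at 749, and the shares of the 11 libraries and of the other 31 overlapped in that library. Both distal baseline groups of the null colony held 2 libraries of each number. Against the baseline libraries numbered 4149 alone, the log2 difference of H2ac19 after DSS was 0.40 in WT (adjusted p = 0.642) and 0.80 in Mtg16-null (adjusted p = 0.116), and against those numbered 5094 alone it was 5.68 (adjusted p = 0.131) and 6.03 (adjusted p = 0.0637). All distal baseline libraries of the P209T colony were numbered 5094, so the same split could not be made for the contrast in which H2ac19 was noticed.

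**Figure D2:**
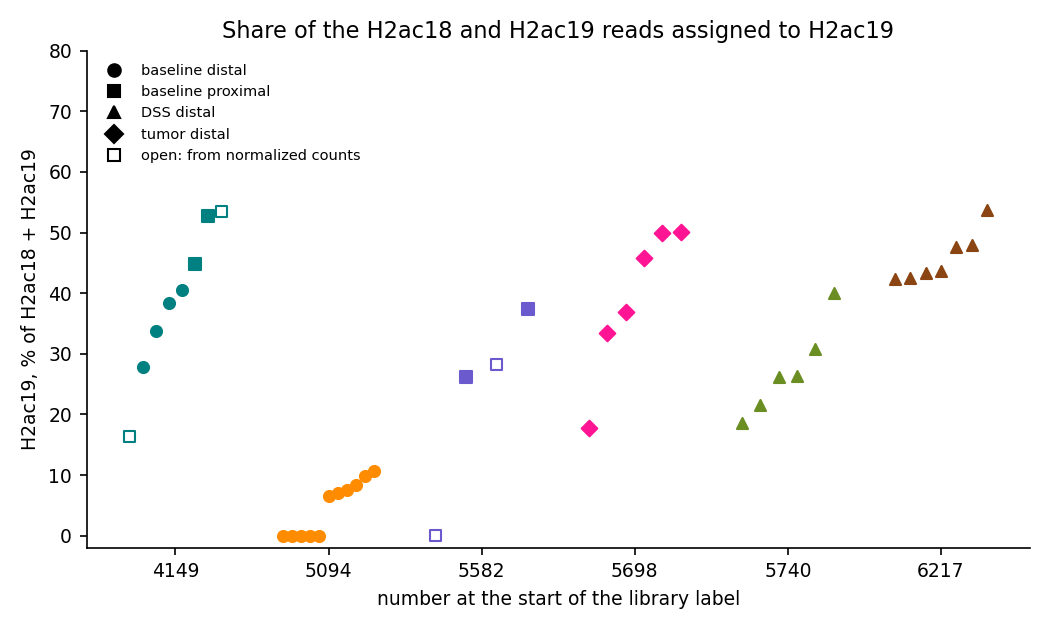
Share of the reads of H2ac18 and H2ac19 assigned to H2ac19 in each of 42 libraries, by the number at the start of the library label; shapes give segment and treatment, open points come from normalized counts, and points within a number are set in order of share. The 11 baseline distal libraries numbered 5094 lie at 0 to 10.7%, and of the 31 others 1 lies at 0 and the rest at 16.4 to 53.8%.

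Of the 56 genes, 33 had a mean normalized count of at least 10 in the WT contrast of the P209T colony and entered the fit. Leaving out H2ac19, whose values chose the group, 4 lay past a limma adjusted p of 0.05, all lower, which is a description here (35.6% of all 13566 genes tested were, 14.0% higher and 21.6% lower). The 4 were H4c12 (log2 difference -1.69, SE 0.49), H2bc6 (-1.38, SE 0.37), H2ac7 (-1.30, SE 0.37) and H2bc9 (-1.26, SE 0.39). H2ac7 summed with its 5 close copies gave -0.41 (SE 0.40). H2bc6 stood at 139, 175 and 135 at baseline and at 33.1, 63.1 and 86.5 after DSS, and the groups did not overlap. The mean was higher after DSS for 7 of the 33, and the median log2 difference was -0.42 against 0.0040 over all genes. Genes of the cell cycle moved in the same libraries: all 20 mitosis genes listed were lower after DSS (median log2 difference -1.42), with the proliferation marker Mki67 at 24710, 19545 and 12664 at baseline and at 571, 534 and 1721 after DSS. Of 33 genes of DNA replication 15 were higher (median -0.07). Npat, the coactivator that switches on replication-dependent histone genes at the start of S phase, stood at 1049, 909 and 828 at baseline and at 122, 73.4 and 289 after DSS. Short transcripts (under 600 bases) were higher by a median log2 difference of 0.19 and long ones (over 5000 bases) lower, at -0.55. Without DSS replicate 3, 8 were lower past that threshold, where 4709 of all 13573 genes were. Without any other single library 0 to 2 were lower, where 0 to 1231 of all genes were. With the trend of the difference with transcript length removed, 4 members were lower, where 2568 of all 13566 genes were. The members' median was then -0.23 and that of all genes 0.27. The part of the cell cycle and of transcript length in these values was not tested.

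In WT crypts of the null colony after DSS, 41 core histone genes were tested and 5 were called higher and 2 lower, where 3.78% of all genes were called higher and 1.23% lower (5.01% in all). In Mtg16-null crypts, 45 were tested and 9 were called higher and 5 lower, where 13.5% and 10.6% of all genes were (24.1% in all). H2bc13, H2bc14, Hist1h2an, H2bc3 and H4c14 were called higher in both genotypes. The call of Hist1h2an ended in both genotypes when it was summed with its close copies. The first 4 had baseline means under 10 in both genotypes and entered the fit through their DSS libraries, so counts over the genes tested favour such genes. With no filter on low values, 55 genes were tested in each genotype, with 6 called higher and 1 lower in WT (3.75% and 1.02% of all genes) and 9 and 5 in Mtg16-null (11.3% and 8.72%). In WT the count of 7 dropped to 2 without DSS replicate 1, 3 without DSS replicate 3 and 4 without baseline replicate 1 or 2. In Mtg16-null the count of 14 dropped to 8 without DSS replicate 4.

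H2bc14, an H2B gene at chr13:21722044-21722567, had normalized counts of 14.6, 9.10, 7.24 and 4.64 at baseline and 223, 174 and 156 after DSS in WT (log2 difference 4.31, SE 0.39, adjusted p = 7.84e-05). In Mtg16-null it had 3.84, 9.21, 8.45 and 15.4 at baseline and 448, 180, 185 and 348 after DSS (4.85, SE 0.45, adjusted p = 0.000181). Every DSS library lay far above every baseline library. H2bc13, an H2B gene of the same cluster at chr13:21715763-21716143, had 1.46, 2.60, 2.90 and 1.16 at baseline and 62.1, 30.5 and 42.9 after DSS in WT (3.92, SE 0.47, adjusted p = 0.000543). In Mtg16-null it had 0, 1.15, 0 and 2.71 at baseline and 166, 29.5, 43.8 and 138 after DSS (5.48, SE 0.70, adjusted p = 0.00103). These genes are not equally distinct in sequence, with 41.5% of 31-base words unique to H2bc14 and 11.4% to H2bc13, which shared 78.9% with Hist1h2br.

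H4c14, an H4 gene of the chromosome 3 cluster with 97.7% of its 31-base words unique, had 23.4, 15.6, 11.6 and 4.64 at baseline and 117, 70.0 and 54.6 after DSS in WT (2.57, SE 0.51, adjusted p = 0.0139). In Mtg16-null it had 6.41, 12.7, 17.95 and 5.42 at baseline and 177, 97.8, 122 and 141 after DSS (3.65, SE 0.41, adjusted p = 0.000508). No DSS library of either genotype overlapped its baseline. H2bc7 had 10.3, 10.4, 9.51 and 10.8 at baseline and 214, 68.3, 76.9 and 151 after DSS in Mtg16-null (3.36, SE 0.40, adjusted p = 0.000723). In WT it had 7.30, 13.0, 4.35 and 20.9 against 76.1, 38.6 and 31.1 and missed the threshold (2.09, SE 0.54, adjusted p = 0.0512). With no filter on low values H2bc7 was called higher in WT too. Hist1h2an, an H2A gene, had 1 read in all 4 WT baseline libraries and 80 in the 3 after DSS, a ratio of 89.5 after scaling to depth, with a 95% exact interval of 15.6 to 3579 for counting error only. Of its 363 words of 31 bases 40 were unique, and 81.5% were shared with H2ac12. Summed with its 5 close copies in an added fit, it was not called in WT (0.076, SE 0.33, adjusted p = 0.909) or in Mtg16-null (0.25, SE 0.43, adjusted p = 0.688). H2bc3 was called in both genotypes (2.25, SE 0.53, adjusted p = 0.0368 in WT and 2.27, SE 0.53, adjusted p = 0.018 in Mtg16-null). Leaving out any 1 library, H2bc13 and H2bc14 kept their calls in both genotypes, and so they did against either set of baseline libraries alone. H2bc13 was not summed with Hist1h2br, since the 78.9% of words it shared lay under the 80% set for summing. In WT the call was lost for H4c14 without DSS replicate 1 (adjusted p = 0.0985) or against libraries numbered 5094 (0.0671), and for H2bc3 without baseline replicate 1, 2 or 4 or DSS replicate 3 (0.0597 to 0.0801) or against those numbered 4149 (0.191). Without any 1 of the 3 DSS libraries the mean of Hist1h2an fell under 10 and it was not tested, and the same held for H2bc3 without DSS replicate 1. In Mtg16-null the call was lost for H2bc3 without DSS replicate 4 (0.059) or against those numbered 5094 (0.0866), and for Hist1h2an without baseline replicate 1 (0.0636) or against those numbered 4149 (0.0888), while without DSS replicate 1 or 4 Hist1h2an was not tested.

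**Figure D3:**
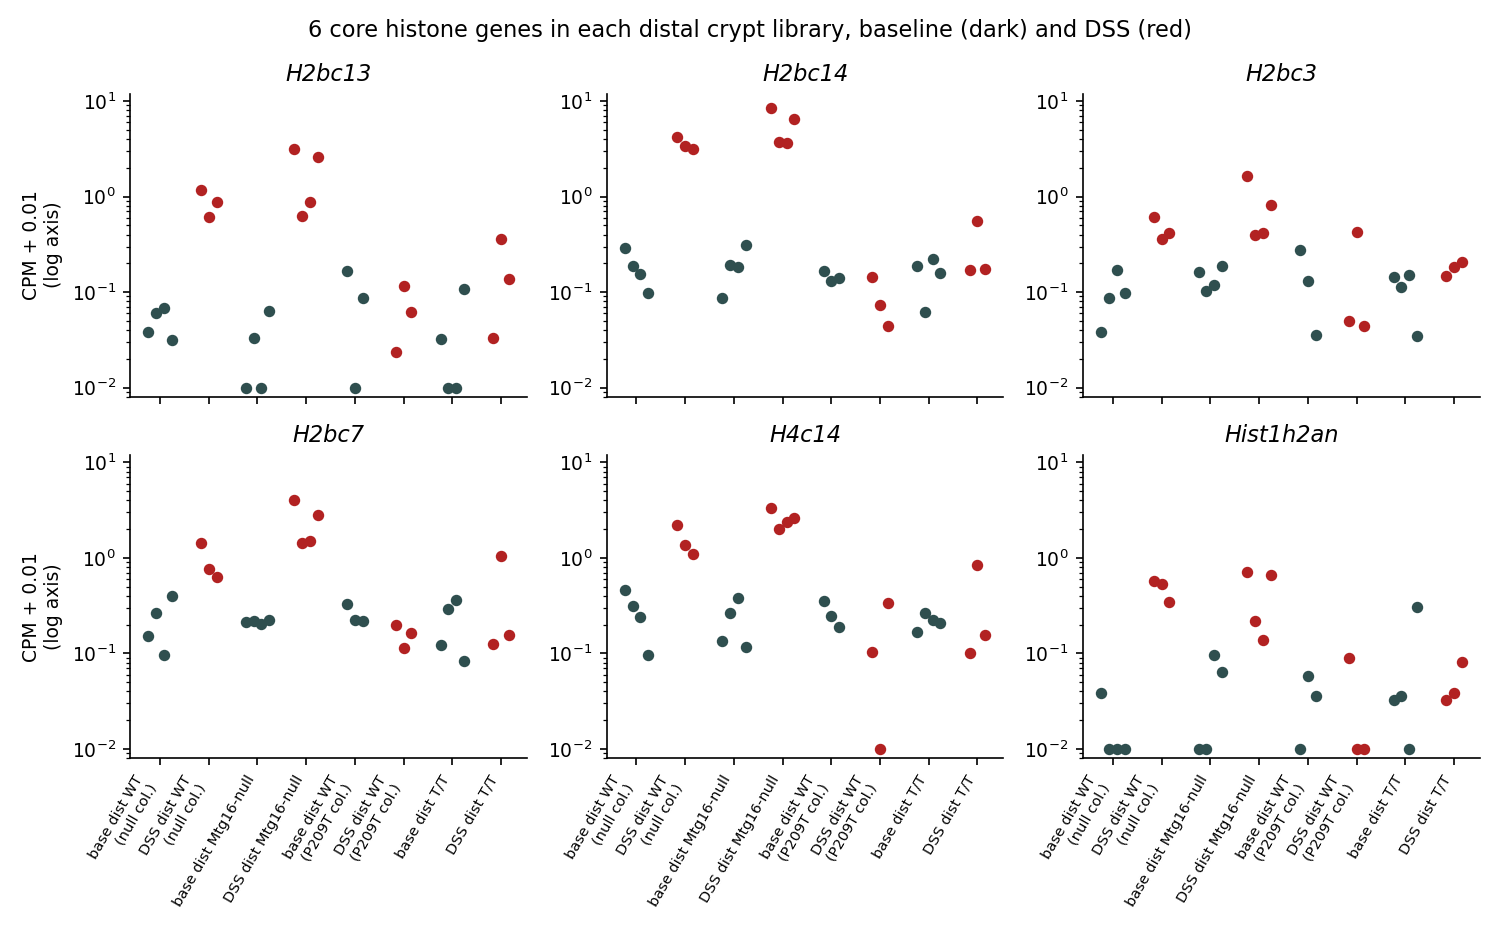
CPM (plus 0.01, log axis) of H2bc13, H2bc14, H2bc7, Hist1h2an, H4c14 and H2bc3 in each distal crypt library, dark at baseline and red after DSS. The DSS libraries of the null colony stand above their baseline libraries, with H2bc14 at 3.58 in WT and 5.55 in Mtg16-null on average, against 0.0770 after DSS in WT of the P209T colony.

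The genes called lower were mostly others. H2bc4, one of the most abundant core histone genes, had 9606, 8976, 5909 and 9102 at baseline and 4750, 4208, 4748 and 5613 after DSS in Mtg16-null, without overlap (-0.78, SE 0.17, adjusted p = 0.0126). H2ac6 fell in both genotypes, with 96.1, 87.5, 102 and 150 at baseline and 31.6, 36.3, 45.5 and 46.4 after DSS in Mtg16-null (-1.41, SE 0.27, adjusted p = 0.00797) and -1.11 (SE 0.27, adjusted p = 0.0384) in WT. H2bc4 and H2ac6 are neighbours in the main cluster on chromosome 13, and both have annotated ends of more than 300 bases. H3c4, H2bc21 and Hist1h2br were the others called lower in Mtg16-null (-1.52, -0.76 and -3.50). Hist1h2br fell from 19.2, 61.0, 17.95 and 56.9 to 0, 2.53, 1.65 and 7.89, and its near-copy Hist1h2bq, with which it shares 89.5% of its 31-base words, was summed with it in an added fit that gave -1.89 (SE 0.25, adjusted p = 0.00132). In WT, H2ac7 was called lower (-1.62, SE 0.40, adjusted p = 0.0436), but its sum with the same close copies as Hist1h2an was not (0.076, SE 0.33).

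Most of these calls did not hold against each set of baseline libraries taken alone. In Mtg16-null, H2bc4 was not called against those numbered 4149 (adjusted p = 0.0612), nor were H2ac6 (0.075), H3c4 (0.101) and Hist1h2br (0.0734) against those numbered 5094. H2bc21 was not called against either, or without baseline replicate 4 or DSS replicate 3 or 4. In WT, H2ac6 lost its call with no filter on low values and without any 1 library other than DSS replicate 2. H2ac7 lost its call without any 1 library other than baseline replicate 3.

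The calls in Mtg16-null are given here by annotated end, a division made after values were seen, with no test of a difference between its groups. The counts are those with no filter on low values, where 11.3% of all genes were called higher and 8.72% lower. Short transcripts of other genes (under 600 bases) with a mean of at least 10 ran the same way, with 192 of 927 called higher and 45 lower (median log2 difference 0.24), against 49 and 86 of 475 for long ones (over 5000 bases; median -0.26). Of 27 genes with short ends, 6 were called higher and 0 lower by limma (median log2 difference 0.60), and 4 of the 6 (H2ac20, H2ac4, H2bc14 and H2bc3) had baseline means under 10, while H2bc7 and H4c2 had not. Of 16 with long ends, 1 was called higher (H4c14) and 5 lower (median -0.50), and of 12 tested whose annotation stopped at the coding sequence 2 were called higher (median 0.61). With the filter and with the trend of the difference with transcript length removed, 8 of the 45 members were called higher and 8 lower, where 8.91% and 17.6% of all genes were, and the members' median went from 0.29 to 0.038 while that of all genes went from 0.016 to -0.14. In WT of the null colony, with no filter, the counts were 3 higher and 1 lower of 27, 1 and 0 of 16, and 2 and 0 of 12. Hist1h2ap, the most abundant per length, has a short end and did not pass the threshold: it had 5494, 5082, 13318 and 6058 at baseline and 32589, 9832, 10258 and 20340 after DSS in Mtg16-null (1.22, SE 0.43, adjusted p = 0.0629), and the groups overlapped.

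**Figure D4:**
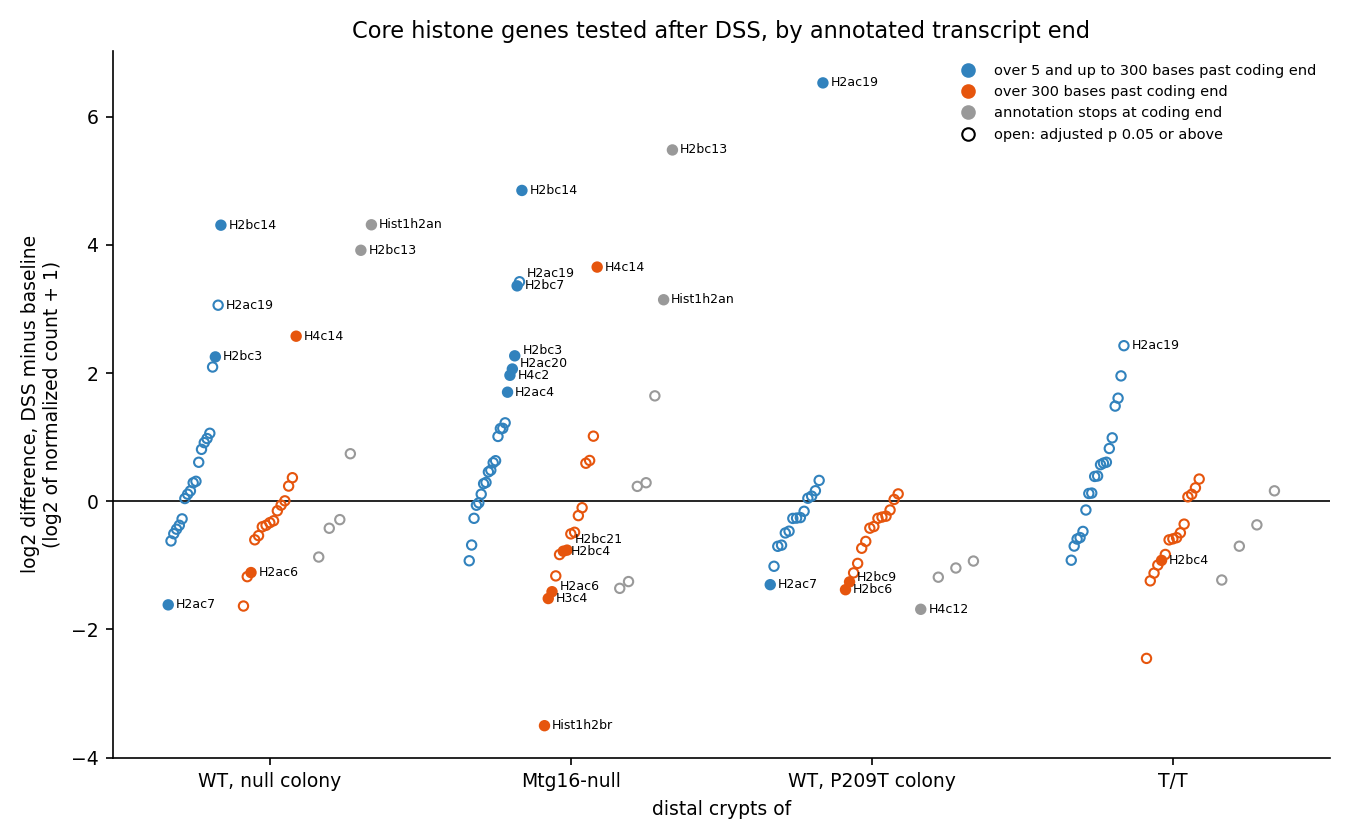
Log2 difference after DSS for each core histone gene tested, by genotype and by the length annotated past the coding sequence; filled points have a limma adjusted p under 0.05. In Mtg16-null crypts 6 genes with short ends are called higher, 4 of them with baseline means under 10, and 5 with long ends lower, where 13.5% of all genes were called higher and 10.6% lower; the WT panel of the P209T colony is the contrast that singled H2ac19 out.

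Rn7s1, the 7SL RNA of the signal recognition particle, which has no poly(A) tail (named after its values were seen), rose in the same libraries, from 397, 524, 850 and 795 to 7454, 4424 and 4383 in WT (3.10, SE 0.28, adjusted p = 8.34e-05) and from 323, 474, 923 and 674 to 15187, 5028, 6560 and 11118 in Mtg16-null (3.96, SE 0.40, adjusted p = 0.000275). Replicates 1 and 4 of the Mtg16-null DSS group held its higher values, and the same 2 libraries held the higher values of H2bc13, H2bc14, H2bc7 and Hist1h2ap. The summed level of the RNAs without a poly(A) tail (7 of 18 listed) was 387 to 1112 at baseline and 5101 to 15400 after DSS in Mtg16-null, nearly all of it Rn7s1 (15187 in the highest library), and of its 4 tested genes Rn7s1 alone was called. The other 3, Rn7sk (0.076, SE 0.48), Rmrp (2.87, SE 1.22) and Rpph1 (-0.078, SE 0.49), had adjusted p of 0.917, 0.108 and 0.916. In T/T mice, DSS replicate 2 stood at 2787 for Rn7s1 against 253 and 432 in replicates 1 and 3, and the same library had the highest H2bc13 (14.9 against 0.972 and 5.69), H2bc14 (23.6 against 6.80 and 7.32) and H4c14 (36.1 against 3.89 and 6.50). In WT of the P209T colony Rn7s1 was 313 to 340 after DSS and 392 to 589 at baseline, and H2bc14 was not high. The part of poly(A) selection in the rise of these histone genes was not tested.

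Genes of proliferation were read in the same null colony libraries. Of the 33 replication genes 13 were called higher in Mtg16-null (median log2 difference 0.57), among them Mcm5 (1.12, SE 0.23, adjusted p = 0.0106) of the replicative helicase and Rrm2 (0.71, SE 0.20, adjusted p = 0.0331), which makes deoxyribonucleotides. In WT, 0 of 33 were called by limma (median 0.55). Of the 20 mitosis genes, 1 was called higher and 1 lower in Mtg16-null and 0 in WT, and Mki67 had differences of -0.41 (SE 0.17) and 0.072 (SE 0.29). The stem-loop binding protein gene Slbp (-0.11, SE 0.18 and -0.058, SE 0.14), Npat (-0.40, SE 0.20 and -0.093, SE 0.22) and Lsm11 of the U7 particle that cuts histone pre-mRNA (0.32, SE 0.13 and 0.19, SE 0.18) did not pass the threshold in Mtg16-null or WT. Among replication-independent histones, whose mRNAs are polyadenylated, H2afz rose in Mtg16-null (0.54, SE 0.14, adjusted p = 0.0227), H1f0 fell (-0.53, SE 0.13, adjusted p = 0.0203) and H3f3b was not called (0.16, SE 0.11, adjusted p = 0.322). Markers of other cells rose too: 6 of 7 myeloid markers were called higher in Mtg16-null, their summed level 2710 to 8908 at baseline and 11954 to 27676 after DSS, with 3 of 4 fibroblast markers and 4 of 6 markers of B and plasma cells tested. Of the 7 myeloid markers 2 were called in WT. All 4 red blood cell markers tested were higher, 0 of 8 epithelial markers were called by limma, and 16 of 25 short polyadenylated mRNAs, all of ribosomal proteins, were higher. The part of other cells in the histone values was not tested.

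The difference between the DSS effects in Mtg16-null and WT was tested by an interaction term. Of 43 core histone genes 0 were called by limma (0.0% of all genes), with 1 at an unadjusted p under 0.05 (3.62% of all genes), and 0 by edgeR or DESeq2. That 1 was Hist1h2br (-3.13, SE 0.95, adjusted p = 0.747). H2bc13 differed by 1.57 (SE 0.87), H2bc7 by 1.26 (SE 0.68), H4c14 by 1.07 (SE 0.68) and H2bc14 by 0.54 (SE 0.62), each short of the threshold.

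In T/T distal crypts after DSS, 1 of 38 core histone genes was called, and it was lower (4.06% of all genes were called, 2.47% higher and 1.59% lower). This was H2bc4, with 7333, 7439, 7432 and 5831 at baseline and 3907, 2793 and 4555 after DSS, without overlap (-0.92, SE 0.20, adjusted p = 0.0441). The call was lost without any 1 library other than DSS replicate 2 or 3 (adjusted p of 0.0617 to 0.17). H2bc13 and H2bc14 had mean normalized counts under 10 and were not tested. In CPM, mean H2bc14 after DSS stood at 5.55 in Mtg16-null, 3.58 in WT of the null colony, 0.291 in T/T and 0.0770 in WT of the P209T colony. All 7 DSS libraries of the null colony, from 3.11 to 8.39, lay above the 6 of the P209T colony, from 0.0344 to 0.551. Colony and label number go together here, and the difference between the colonies was not tested.

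In AOM/DSS tumors of WT mice, 38 core histone genes were tested against the same 3 baseline libraries of the P209T colony. Leaving out H2ac19, 13 were called, all lower, H2ac18 among them, where 63.8% of all genes were called, 34.5% higher and 29.2% lower. H2ac18 had 1227, 1689 and 1592 in crypts and 446, 442 and 504 in tumors (-1.68, SE 0.15). This is a description, since its reads in those baseline libraries were divided with H2ac19. H2bc4 had 8883, 8866 and 8365 in crypts and 3409, 3124 and 5207 in tumors (-1.19, SE 0.18, adjusted p = 0.00049). H2bc6 (-1.55, SE 0.31, adjusted p = 0.00255) and H2ac7 (-1.67, SE 0.36, adjusted p = 0.00394) were also lower, but H2ac7 summed with its 5 close copies was not called (-0.11, SE 0.25, adjusted p = 0.728). H2bc4, H2bc6 and H2ac7 had groups that did not overlap, and each kept its call without any 1 library. The count of 13 dropped to 6 without baseline replicate 2 and 8 without tumor replicate 2. H2ac19 had 0, 127 and 0 in crypts and 261, 373 and 506 in tumors, a log2 difference of 6.19 (SE 1.67) given as a description, since its baseline libraries are those that singled it out. Summed with H2ac18, the log2 difference was -0.87 (SE 0.18), a description for the same reason. Cell composition differed beside this: all 6 fibroblast markers were called higher, their sum 44.7 to 117 in crypts and 98442 to 136885 in tumors, and 7 of 8 epithelial markers were called lower. Of 33 replication genes 14 were called higher and 0 lower by limma. The part of the tissue preparation in the histone values cannot be told apart from the tumor.

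Between segments at baseline, 11 of 34 core histone genes were called higher in WT distal than in WT proximal crypts and 0 lower by limma (42.1% of all genes were called, 20.1% higher and 22.0% lower, and 15 members against 49.4% of all genes had an unadjusted p under 0.05). The mean was higher in distal crypts for 29 of 34, with a median log2 difference of 0.55 against 0.0048 over all genes. H4c8 ran from 44.5 to 70.1 (median 56.0, n = 7) in distal crypts and stood at 20.7, 35.9, 29.99 and 19.3 in proximal crypts (1.04, SE 0.22, adjusted p = 0.00153). Hist1h4n ran from 26.5 to 108 (median 75.5) and stood at 18.3, 11.6, 25.9 and 23.2 (1.75, SE 0.38, adjusted p = 0.00215). H2ac18, one of the 11, ran from 647 to 1518 (median 1222) and stood at 432, 665, 674 and 533 (0.94, SE 0.22), overlapping in its lowest distal library. H2ac19, with which it shares its sequence, was not among the 11 (-4.25, SE 1.74), and the sum of the pair differed by 0.37. The values of both genes and of their sum are a description, since 3 of the 7 distal libraries are those that singled H2ac19 out.

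Of the 7 distal libraries 5 were numbered 5094, and no proximal library was. With the label number as a covariate, 1 core histone gene, Hist1h4n, was called (1.04, SE 0.32, adjusted p = 0.0379), where 23.0% of all genes were, and the median of the 34 was 0.15. Number 4149 held libraries of both segments: there Hist1h4n was 36.6 and 26.5 in distal and 18.3 and 11.6 in proximal crypts, H4c8 was 46.0 and 56.0 against 20.7 and 35.9, and H2bc6 was 155 and 78.4 against 97.9 and 69.8. Hist1h4n and H4c8 did not overlap within that number, whereas H2bc6 did. The replication genes lay the other way, with 0 of 33 called higher and 6 lower by limma (median -0.26), and all 5 T cell markers tested were lower in distal crypts. Linker histone genes, a list set after values were seen, ran with the core genes (3 of 4 tested called higher, median 1.64). The part of T cells in these values was not tested.

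**Figure D5:**
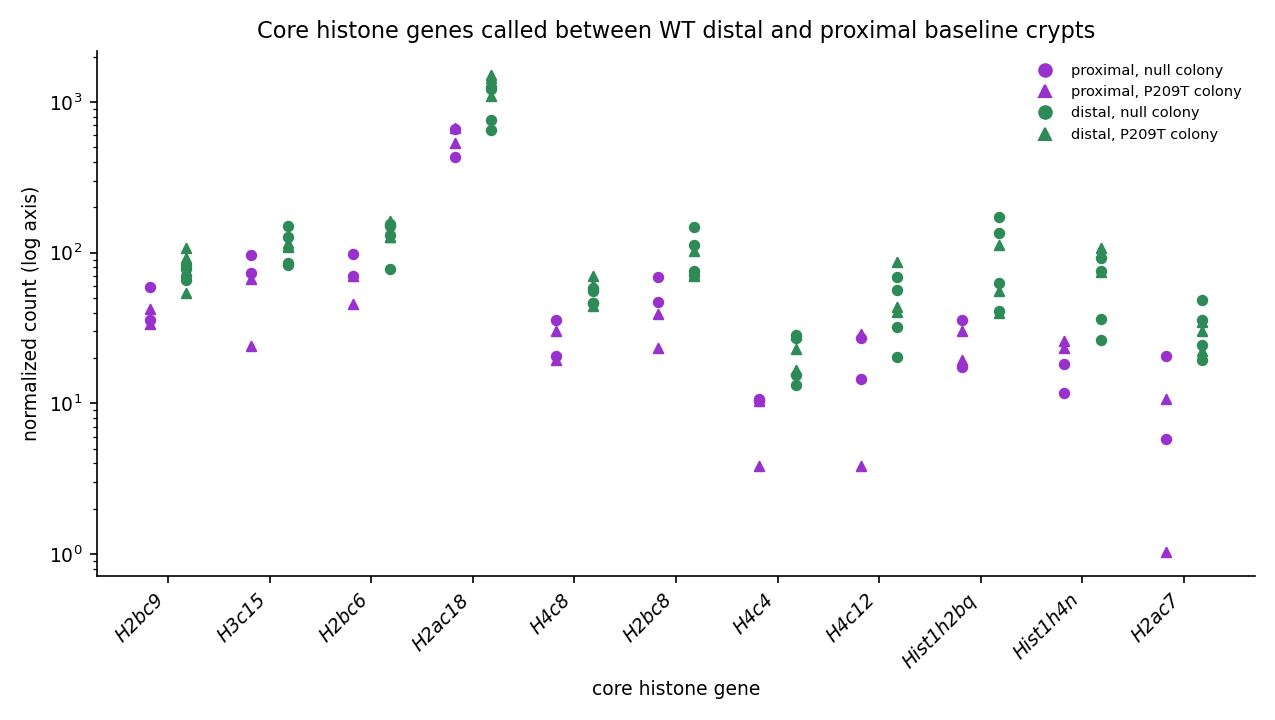
Normalized counts (log axis) of the 11 core histone genes called between WT distal (green) and WT proximal (purple) baseline crypts, in each of 7 distal and 4 proximal libraries; circles are null colony and triangles P209T colony. H4c8 and Hist1h4n show no overlap, whereas the lowest H2ac18 value in distal crypts (647) lies below the highest in proximal crypts (674).

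Genotype was compared within each treatment. Cbfa2t3, the gene of MTG16, was lower in Mtg16-null crypts after DSS, at 427, 594, 595 and 486 against 2020, 1845 and 2519 in WT (-2.02, SE 0.19, adjusted p = 0.00292). At baseline it was 424 to 1095 against 1027 to 1809 in distal crypts and 631 and 1057 against 1634 and 3221 in proximal crypts, neither past the threshold (adjusted p = 0.303 and 0.445). In T/T mice, whose allele is a point mutation, its level does not check the labels.

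No core histone gene was called by limma between genotypes in any of the 7 comparisons. Each count of members at an unadjusted p under 0.05 is given with the share of all genes at that same p. For Mtg16-null against WT, 33 genes were tested in proximal baseline crypts (0.0645% of all genes called; 0 members and 5.96% of all genes at the unadjusted p). In distal baseline crypts 35 were tested (0.239% called, 1 member and 4.63%), and after DSS 46 (0.629% called, 6 members and 12.4%). For T/T against WT, 25 were tested in proximal baseline crypts (0.232% called, 1 member and 12.0%) and 33 in distal baseline crypts (0.0369% called, 1 member and 4.65%). After DSS 40 were tested (0.0% called, 7 members and 8.77%), and in tumors 40 (0.0% called, 1 member and 2.47%). edgeR called 0 in each of the 5 comparisons where reads were recovered. DESeq2 called 0 in distal baseline crypts of both colonies and in tumors. After DSS it called 1 in Mtg16-null, where 487 of all 14476 genes were called higher and 240 lower. In T/T after DSS it called 2, where 156 of all 13648 genes were called higher and 178 lower.

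After DSS, WT and Mtg16-null libraries with the same replicate number deviated together. With the number as a block 4 of 45 genes were called, where 8.74% of all genes were. The labels do not say that these libraries are pairs, so the block was picked from these data and its p-values are a description. H2bc4 was lower in Mtg16-null (5081, 4593, 5216 and 5986 against 7228, 7341 and 7577), with a blocked log2 difference of -0.57 (SE 0.10, adjusted p = 0.00835). Hist1h2br was lower (-3.19, SE 0.60, adjusted p = 0.0138), while without the block its sum with Hist1h2bq was not called (-1.02, SE 0.37, adjusted p = 0.271). H2bc7 (1.19, SE 0.26, adjusted p = 0.0268) and Hist1h2ap (0.54, SE 0.13, adjusted p = 0.0374) were higher. The block leaves out the fourth Mtg16-null library, which has no WT library of its number. Without the block the same 4 genes had adjusted p of 0.127, 0.167, 0.258 and 0.622.

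Over the 14 comparisons, 23 of the 56 genes were tested in every one, 25 in some and 8 in none because their mean stayed under 10. These 8 were H2ac1, H2ac10, H2ac15, H2ac21, H2bc18, H4c6, Hist1h2ao and Hist1h2bp. A total of 28 genes were called in at least 1 comparison. H2ac19 and H2ac18 were among them only through comparisons that hold the libraries that singled H2ac19 out. Among the classes' most abundant genes Hist1h2ap, H4c9 and H3c3 were called in none without the block.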

How the data were processed

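RNA from colon crypts and tumors was poly(A)-selected and sequenced. Per the labels and the methods of the study, the authors trimmed reads with fastp 0.20.0, quantified transcripts with Salmon 1.3.0 and computed differential expression with DESeq2 1.26.0 in R 3.6.3. The deposited tables hold normalized counts per gene, a signal that the authors obtained by dividing estimated counts by DESeq2 size factors. Their own fold changes, p-values and related columns were not used. Whole reads were recovered from the steps of these values in 7 of 9 tables (all values of 51 columns within 0.1 of a whole number), not in the 2 tables of proximal mutant crypts.

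Genes with a mean of at least 10 were tested with limma 3.58.1 (trend) on log2(normalized count + 1), with Benjamini-Hochberg adjustment over all genes at 0.05. Differences are on that scale and understate those of low genes. Comparisons between tables used recovered reads of the genes shared by those tables, after TMM scaling. edgeR 4.0.16 (quasi-likelihood) and DESeq2 1.42.0 were alternatives where reads were recovered, beside another pseudocount, no filter, a length trend removed, a replicate block and leaving out each library. Summing near-identical copies was added after the data were seen. The scripts were tested on simulated data. Replicates are libraries the labels number within a group, and p-values measure only the spread between them. Replicate numbers were taken to pair libraries only between Mtg16-null and WT after DSS. There deviations of same-numbered libraries correlated at 0.317 to 0.554, a hint from the data. Between T/T and WT after DSS, not taken as pairs, the values were -0.0294, -0.708 and -0.766.

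The members and the gene lists (replication, mitosis, histone processing, replication-independent histones, RNA without poly(A) tail, cell type markers and others) were chosen with earlier results of these data known. Linker histones, the division by annotated end and Rn7s1 were added after values were seen. Genes named were H2ac19, the 3 most abundant of each class in WT, every called member (the 4 with the smallest p per direction where over 8 were called) and a few listed genes. Precision is limited by 2 to 7 libraries per group, and intervals cover counting error only.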

Additional observations from a re-analysis of the deposited data

Results flagged for a closer look

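In 138 groups of 4 to 10 libraries, the lowest or highest value of a core histone gene was compared with the rest. Of these groups, 8 held a library far from the others, near the 1 in 20 that chance gives. That share holds for independent groups, whereas some of these share libraries and some flags fell on the same library. Replicate 3 of the distal baseline groups of the null colony was high for Hist1h2ap in both genotypes, at a normalized count of 8321 in WT (next 4886) and 13318 in Mtg16-null (next 6058), and low for H2bc4 in Mtg16-null, at 5909 (next 8976). In distal baseline T/T crypts, replicate 4 was low for H2bc4 at 5831 (next 7333) and high for Hist1h2an at 12.6 (next 1.08). Replicate 4 of the WT distal baseline crypts of the null colony was low for H2bc6 at 78.4 (next 127). The other 2 were single low values above zeros, Hist1h2an at 1.46 in replicate 1 of WT distal and H2bc13 at 3.98 in replicate 1 of WT proximal baseline crypts of the null colony.

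H2bc7 lay in opposite directions after DSS in WT mice of the colonies, with a log2 difference of -0.62 in the P209T colony (from the fit without a filter on low values) and 2.09 in the null colony, and no library went against its group. The difference between the colonies was not tested.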

How the results depend on the processing

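Over all alternatives, 822 of 989 values of single core histone genes kept their direction and side of the threshold, 146 lost and 6 gained a call, and 15 reversed. Of 202 counts of called members, 169 stayed within 1.5 times the value reported. Summing near-identical copies reversed H2ac19: to -0.13 (WT, null colony), -0.63 (T/T) and -0.87 (tumors) against baseline, 0.37 between segments (-4.25 alone), -0.16 for Mtg16-null (0.09 alone) and -0.12 for T/T (2.83 alone) in distal baseline crypts. It also reversed H2ac7 in WT of the null colony (0.076). The label number as a covariate reversed H3c15 between segments (-0.0017) and left 1 member called. Leaving out 1 library reversed H2ac19 in the interaction (-0.37, -0.67 and -1.66, range to 2.36, reported value 0.37) and for Mtg16-null at distal baseline (-0.17, -0.67, -0.87 and -1.86, range to 2.07). In WT of the P209T colony after DSS, 5 members (H2ac19 counted here and in tumors) became 0 to 9 when 1 library was left out, 3 with copies summed, 3 with edgeR and 1 with the replicate block. In WT of the null colony, 7 became 2 to 6, 12 with the block, and 4 against baseline libraries numbered 4149. In Mtg16-null, 14 became 8 to 17, and 7 against those numbered 5094. In T/T, 1 became 0 to 2, and 0 with the length trend removed, the block or edgeR. It became 5 with DESeq2, where 813 of all 13689 genes were called higher and 558 lower. The number of all genes called changed with the settings in the other comparisons as well. In tumors 14 became 7 to 14, and between segments 11 became 10 to 14. For T/T against WT in proximal crypts 0 became 0 to 1, after DSS 0 became 2 with DESeq2, and for Mtg16-null after DSS 0 became 4 with the block and 1 with DESeq2. Causes were not tested. Except in that last comparison, same-numbered libraries were not taken as pairs, so calls lost under the block there say nothing of effect size. Removing the length trend took the median of all genes in tumors from 0.062 to -0.56. Low genes such as H2bc13 are limited by depth at baseline.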
